A study of Mus musculus with 11 samples.

Results

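The contractile apparatus of the myofibroblast was followed through 10 genes in fibroblasts sorted from mouse skin and skin wounds. The genes were taken by symbol from a table of 47643 gene symbols, and all 10 were present and passed the filter on low values. Cnn1 passed it through wound libraries alone. They encode thin filament proteins (Acta2, Tagln, Cnn1, Cnn2, Cald1, Tpm1 and Tpm2), subunits of the motor (Myl9 and Myh9) and a crosslinker (Actn1). The 11 libraries came from mice of a mixed CD-1 and C57Bl/6 background aged 9 to 12 weeks. Act mice carry an activin transgene (INHBA) under the keratin 14 promoter, so that the transgene is driven in keratinocytes and not in fibroblasts, and wild-type (WT) mice served as controls. The groups were unwounded back skin (NS) of WT mice (n = 3), NS of Act mice (n = 3), excisional wounds at day 5 (5dw) of WT mice (n = 3) and 5dw of Act mice (n = 2, replicates 1 and 3). All cells were live, negative for CD45 and positive for CD140a, the PDGF receptor alpha of fibroblasts, and each library pooled RNA of 3 animals.

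Myofibroblasts are fibroblasts that assemble bundles of actin and myosin and pull on the matrix around them, and smooth muscle alpha-actin is the protein by which they are usually recognised. In such a bundle the thin filament is built of actin, stabilised by tropomyosin and decorated by calponin, caldesmon and transgelin, which bind actin and, for calponin and caldesmon, restrain its interaction with myosin. Non-muscle myosin II slides these filaments when its regulatory light chain is phosphorylated, and alpha-actinin ties neighbouring filaments together.

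Values are RPKM, read counts divided by gene length and library size, so that a comparison of levels between genes rests on the gene lengths the authors used. For Acta2, Tagln, Cnn1, Cald1 and Actn1 the steps between RPKM values gave a length other than the GENCODE M21 exon length. Differences are log2 fold changes (log2FC) of RPKM + 0.5 fitted with limma, with the standard error (SE), and a gene was called at an adjusted p under 0.05. Coordinates are of GRCm38 in the GENCODE M21 annotation, all 10 genes are protein-coding there, and at most 1.39% of the 31-base sequences of a member occur in another gene. Mapped reads ranged from 18649321 to 39702138 per library and were highest in the 3 WT 5dw libraries. On the first principal component (76.1% of the variance) scores ran from 31.7 to 53.9 in NS and from -59.3 to -51.2 in 5dw. On the second (7.06%) WT NS replicate 1 at 22.4 and Act NS replicate 1 at 35.8 stood apart from the other NS libraries, at -18.1 to -7.42, and results that change without them are given with their values. In deposited RPKM the 11979 genes tested had a median log2FC of -0.40 for WT 5dw against WT NS and of -0.31 for Act 5dw against Act NS. Median-ratio scaling moved these medians to -0.0043 and 0.0019, and differences are given below in RPKM as deposited with the scaled value where the call or direction changes. In these bulk samples, fewer cells that express a gene and less of its RNA per cell cannot be told apart.

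In 5dw 9 of the 10 genes rose over NS in WT mice and 9 of 10 in Act mice, and Myl9 was the exception in both. In the background of all genes tested, 9.45% were called higher and 48.8% lower in WT mice, and 9.04% higher and 36.5% lower in Act mice. The median log2FC of the 10 genes was 1.35 in WT and 1.27 in Act mice. After median-ratio scaling 9 genes were again higher in each genotype and none was lower, against a background of 22.4% higher and 22.2% lower in WT mice and 19.9% higher and 20.8% lower in Act mice. In 9 genes every 5dw library lay above every NS library, which was the case for 8.45% of all genes tested. As a share of all RPKM in a library, the 10 genes together made up 0.0657 to 0.0817% in WT NS and 0.169 to 0.264% in WT 5dw.

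**Figure D1:**
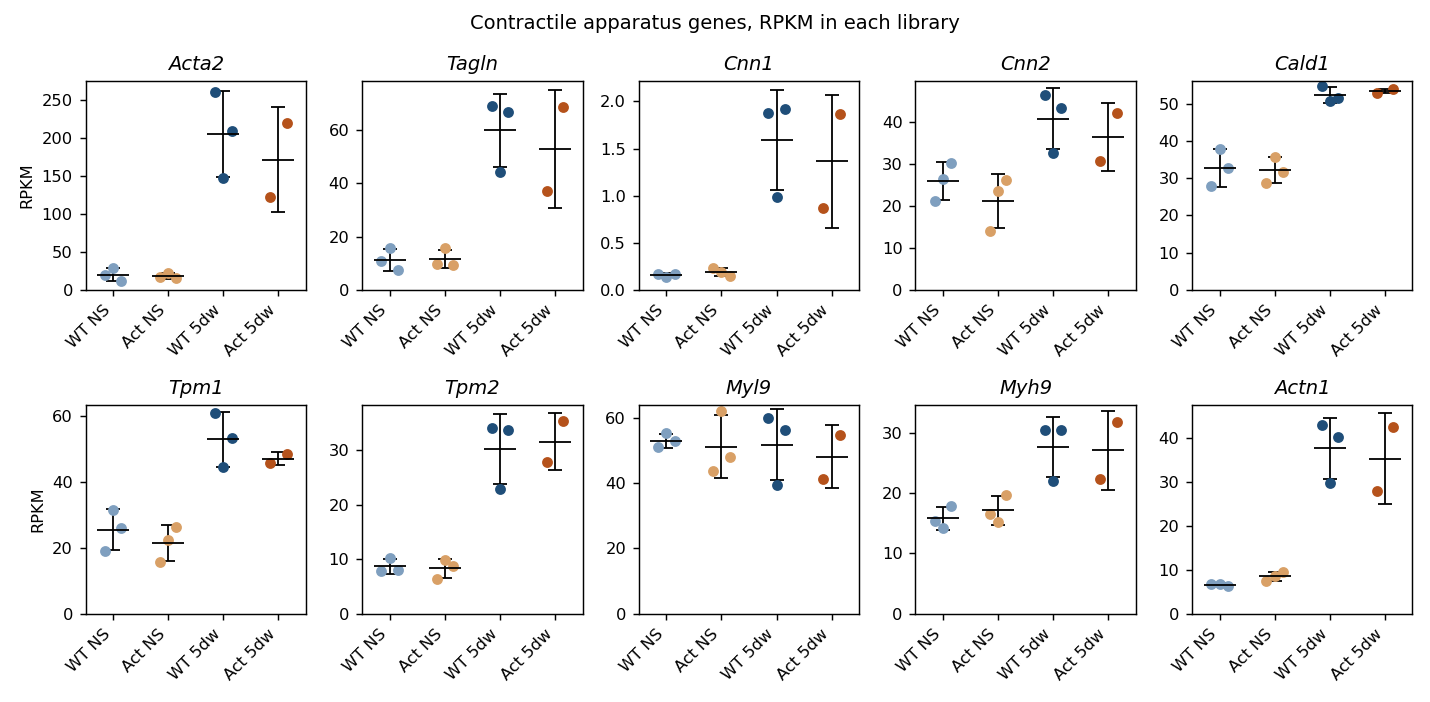
RPKM of the 10 genes (vertical axes, linear, each with its own scale) in the 11 libraries of the 4 groups (horizontal axes). Points are libraries, horizontal bars are group means and error bars are SD (n = 3, and n = 2 for Act 5dw). In every panel but that of Myl9 all 5 wound libraries lie above all 6 NS libraries.

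Acta2 (chr19:34241090-34255590, minus strand), which encodes smooth muscle alpha-actin, had the greatest log2FC of the 10. Its RPKM was 19.0, 29.3 and 12.0 in WT NS, 17.3, 22.0 and 15.3 in Act NS, 261, 148 and 209 in WT 5dw, with 122 and 220 in Act 5dw. The lowest wound library was thus above the highest NS library, and within each condition the genotypes overlapped. The log2FC was 3.38 in WT mice (SE 0.33, limma adjusted p = 2.26e-05) and 3.16 in Act mice (SE 0.37, limma adjusted p = 0.000105). Among the 10 genes Acta2 was the fifth in level in NS and the first in 5dw.

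Tagln (chr9:45929619-45936058, minus strand) encodes transgelin (SM22 alpha), a small actin-binding protein of the calponin family. Its RPKM was 10.8, 15.7 and 7.47 in WT NS, 9.62, 15.6 and 9.50 in Act NS, 69.1, 44.3 and 66.8 in WT 5dw, with 37.3 and 68.6 in Act 5dw. Wound and NS libraries did not overlap, whereas the genotypes did. The log2FC was 2.39 in WT mice (SE 0.31, limma adjusted p = 0.000144) and 2.12 in Act mice (SE 0.35, limma adjusted p = 0.000869). Its last bases overlap Pcsk7 on the opposite strand, whose RPKM was at most 6.06, and the labels do not say whether counting used the strand.

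Both calponins rose, from very different levels. Cnn1 (chr9:22099216-22109630, plus strand), the calponin of differentiated smooth muscle, was the lowest of the 10 genes in both conditions. It had 6 to 13 reads in an NS library and 42 to 176 reads in a wound library, which set its precision. Its RPKM was 0.167, 0.136 and 0.171 in WT NS, 0.229, 0.193 and 0.147 in Act NS, 1.87, 0.981 and 1.92 in WT 5dw, with 0.864 and 1.86 in Act 5dw. Being under 1 RPKM in every NS library, Cnn1 passed the filter through 5dw libraries alone, so that a gene this low in NS could enter only by rising. Over the 3 libraries of a group it had 28 reads in WT NS (exact Poisson 95% interval 18.6 to 40.5) and 442 in WT 5dw (402 to 485), intervals that cover counting error only. The log2FC was 1.63 in WT mice (SE 0.24, limma adjusted p = 0.000268) and 1.38 in Act mice (SE 0.27, limma adjusted p = 0.00201). Because the NS level lies under the pseudocount of 0.5, these values understate the change, and with a pseudocount of 0.1 they were 2.66 and 2.26.

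Cnn2 (chr10:79988584-79996062, plus strand), the calponin found in many non-muscle cells, was much higher in level. Its RPKM was 21.2, 26.3 and 30.1 in WT NS, 13.9, 23.6 and 26.0 in Act NS, 46.3, 32.5 and 43.3 in WT 5dw, with 30.7 and 42.1 in Act 5dw. The gap between the highest NS library and the lowest wound library was narrow, at 30.1 against 30.7. The log2FC was 0.64 in WT mice (SE 0.24, limma adjusted p = 0.0410) and 0.80 in Act mice (SE 0.27, limma adjusted p = 0.0333). The WT call was lost when WT NS replicate 1 (0.51, limma adjusted p = 0.131), WT NS replicate 2 (0.66, 0.0725), WT 5dw replicate 1 (0.54, 0.127) or WT 5dw replicate 3 (0.59, 0.108) was left out, and the Act call without Act NS replicate 1 (0.53, 0.0736) or Act 5dw replicate 3 (0.58, 0.232). With median-ratio scaling the WT log2FC was 1.09 (limma adjusted p = 0.00191).

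Cald1 (chr6:34598500-34775473, plus strand) encodes caldesmon, which inhibits the actin-activated ATPase of myosin. Its RPKM spanned 27.8 to 37.9 in the 6 NS libraries and 50.6 to 54.7 in the 5 wound libraries, the narrowest relative range of the 10 genes in 5dw. The log2FC was 0.68 in WT mice (SE 0.14, limma adjusted p = 0.00179) and 0.73 in Act mice (SE 0.15, limma adjusted p = 0.00305), and 1.13 in WT mice after median-ratio scaling.

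Both tropomyosins rose, with the larger fitted log2FC for Tpm2. Tpm1 (chr9:67022590-67049406, minus strand) spanned 15.5 to 31.3 RPKM in NS and 44.4 to 61.0 in 5dw, with a log2FC of 1.06 in WT mice (SE 0.22, limma adjusted p = 0.00217) and 1.15 in Act mice (SE 0.25, limma adjusted p = 0.00360). The RPKM of Tpm2 (chr4:43514711-43523765, minus strand) was 7.77, 10.3 and 8.05 in WT NS, 6.38, 9.76 and 8.78 in Act NS, 34.1, 22.8 and 33.7 in WT 5dw, with 27.8 and 35.3 in Act 5dw. Its log2FC was 1.73 in WT mice (SE 0.20, limma adjusted p = 7.21e-05) and 1.87 in Act mice (SE 0.23, limma adjusted p = 0.000129).

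Of the motor subunits Myh9 rose and Myl9 was not called. Myh9 (chr15:77760587-77842175, minus strand), the heavy chain of non-muscle myosin IIA, had an RPKM of 15.5, 14.1 and 17.8 in WT NS, 16.5, 15.2 and 19.7 in Act NS, 30.6, 22.0 and 30.4 in WT 5dw, with 22.4 and 31.8 in Act 5dw. The lowest wound libraries, WT replicate 2 and Act replicate 1, lay close above the highest NS library. The log2FC was 0.78 in WT mice (SE 0.18, limma adjusted p = 0.00401) and 0.63 in Act mice (SE 0.20, limma adjusted p = 0.0249). The Act call was lost without Act NS replicate 2 (0.55, limma adjusted p = 0.0769), without Act 5dw replicate 3 (0.39, 0.240), without both NS replicates 1 (0.61, 0.0525) and in a fit of the compared groups alone (limma adjusted p = 0.0549), and with median-ratio scaling the values were 1.22 in WT and 0.98 in Act mice.

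Myl9 (chr2:156775420-156781658, plus strand) encodes the regulatory light chain that is phosphorylated to start contraction. Its RPKM was 51.0, 55.3 and 52.8 in WT NS, 43.7, 62.0 and 47.8 in Act NS, 59.8, 39.3 and 56.2 in WT 5dw, with 41.2 and 54.8 in Act 5dw. The groups overlapped throughout, and Myl9 went from the highest of the 10 genes in NS to the fifth in 5dw without a called change of its own. The log2FC was -0.06 in WT mice (95% confidence interval -0.48 to 0.36, limma adjusted p = 0.813) and -0.09 in Act mice (-0.56 to 0.38, limma adjusted p = 0.755). The upper bounds of these intervals lie below the fitted log2FC of each of the other 9 genes in the same genotype. The intervals of Cnn2 in WT mice (from 0.11) and of Cnn2 and Myh9 in Act mice (from 0.20 and 0.19) start below these bounds. A difference between genes was not tested. After median-ratio scaling the sign for Myl9 turned, to 0.40 in WT and 0.26 in Act mice, and neither was called.

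Actn1 (chr12:80167547-80260371, minus strand) encodes alpha-actinin 1, the crosslinker of stress fibres and focal contacts in non-muscle cells. Its RPKM was 6.78, 6.86 and 6.23 in WT NS, 7.52, 8.50 and 9.52 in Act NS, 43.1, 29.9 and 40.4 in WT 5dw, with 28.0 and 42.7 in Act 5dw. The lowest wound library was thus well above the highest NS library. The log2FC was 2.41 in WT mice (SE 0.18, limma adjusted p = 4.16e-06) and 1.97 in Act mice (SE 0.20, limma adjusted p = 4.82e-05). In NS the 3 Act libraries all lay above the 3 WT libraries, a pattern seen in 0.993% of all genes tested. The reverse was seen in 7.98%, with a median log2FC over all genes of -0.11 between these groups in deposited RPKM. The difference of 0.33 (SE 0.18) for Actn1 was not called (limma adjusted p = 0.701).

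By mean RPKM in NS the order was Myl9, Cald1, Cnn2, Tpm1, Acta2, Myh9, Tagln, Tpm2, Actn1 and Cnn1, with means from 52.1 to 0.174. The ranges of neighbours overlapped for each step from Cald1 to Actn1, and Myl9 above Cald1 and Actn1 above Cnn1 were separated. With GENCODE M21 lengths Cald1 would average 20.7 RPKM in place of 32.4 in NS and stand below Cnn2 and Tpm1, and Acta2 below Myh9. In 5dw the order was Acta2, Tagln, Cald1, Tpm1, Myl9, Cnn2, Actn1, Tpm2, Myh9 and Cnn1, with means from 192 to 1.50. There Acta2 above Tagln and Myh9 above Cnn1 were the only neighbours whose ranges did not overlap. With GENCODE M21 lengths Acta2 would again be the first, followed by Tpm1, Myl9 and Tagln. A fold change of a gene does not depend on its length.

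**Figure D2:**
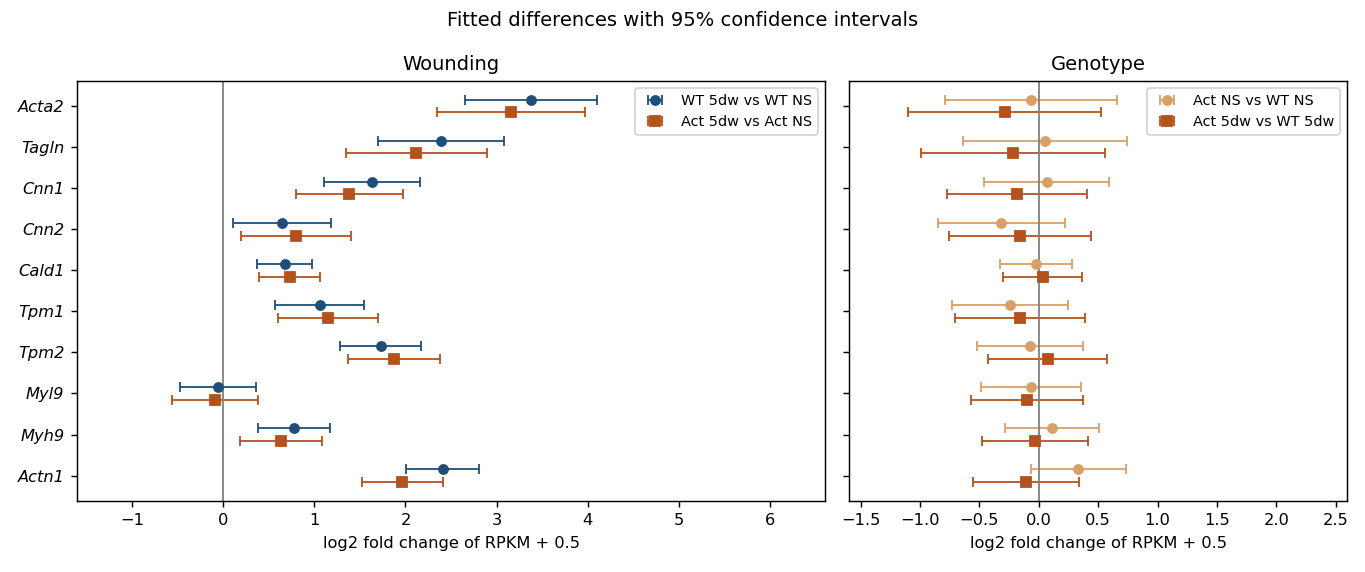
Fitted log2 fold changes of RPKM + 0.5 (horizontal axes) for the 10 genes (vertical axis), with points for limma estimates and bars for their 95% confidence intervals. In the left panel the intervals of 9 genes lie above 0 in WT and Act mice and those of Myl9 span 0, and in the right panel all 20 genotype intervals span 0.

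The second question of the design was whether keratinocyte-derived activin changed these genes in fibroblasts. None of the 10 was called between Act NS and WT NS, where 0.0167% of all genes tested were called, or between Act 5dw and WT 5dw, where 0.0334% were. By limma none reached an unadjusted p under 0.05 in either comparison in RPKM as deposited, while for Actn1 in NS the unadjusted limma p was 0.0256 with median-ratio scaling (log2FC 0.46, limma adjusted p = 0.991) and 0.0216 with quantile normalization (0.47, limma adjusted p = 0.847). In NS the log2FC of the 10 genes ran from -0.32 for Cnn2 (95% confidence interval -0.85 to 0.22) to 0.33 for Actn1 (-0.06 to 0.73). Between same-numbered NS libraries Myh9 and Actn1 were higher and Cnn2 was lower in Act mice in all 3 pairs, and of the 11979 genes tested 704 (5.88%) were higher and 3714 lower in all 3. With the replicate number as a block these were not called either, with a log2FC of 0.11 (SE 0.13, limma adjusted p = 0.760) for Myh9, 0.33 (SE 0.18, 0.583) for Actn1 and -0.32 (SE 0.20, 0.608) for Cnn2. In 5dw it ran from -0.29 for Acta2 (-1.10 to 0.53) to 0.07 for Tpm2 (-0.43 to 0.57). With 2 Act 5dw libraries these intervals are wide, and a p above the threshold does not show that the genotypes were alike.

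The interaction, the change on wounding in Act mice minus that in WT mice, was called for none of the 10 genes and for 0% of all genes tested. By limma none of the 10 had an unadjusted p under 0.05 for it. Its values lay between -0.44 for Actn1 (95% confidence interval -1.04 to 0.15, limma adjusted p = 0.999) and 0.16 for Cnn2 (-0.65 to 0.96, limma adjusted p = 0.999). For Acta2 the interaction was -0.22 (-1.31 to 0.87).

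Within groups the genes varied together. After the group mean of each gene was taken away, 44 of the 45 pairs of genes were positively correlated over the 11 libraries, with a median Pearson r of 0.61, and r between Acta2 and Tagln was 0.96. Over all pairs of the 11979 genes tested 60.4% were positive, with a median r of 0.14. These libraries share their depth and cell sort between all genes, so the values are a description. Myl9 took part in this, with an r within groups of 0.80 with Tagln and 0.90 with Tpm2, although over all 11 libraries, group means included, its r with each was 0.10 and 0.06. The only negative pair was Cald1 and Myh9, at -0.09. WT 5dw replicate 2 and Act 5dw replicate 1 were both below the other 3 wound libraries in 9 of the 10 genes, all but Cald1, a pattern seen in 16.7% of all genes tested and chosen here after the values were seen. The summed RPKM of 14 keratinocyte genes was 360 and 397 in these libraries and 177, 1551 and 477 in the other 3, and their mapped reads were 38740404 and 20531292, so that neither measure set them apart. The summed RPKM of 12 smooth muscle genes was lower in WT 5dw replicate 2 and Act 5dw replicate 1, at 19.7 and 17.9 against 25.9 to 27.8. The lists share genes, since Smtn, the highest smooth muscle gene, is also in the other thin filament list and Myh11 in the other myosin II list. The sums of 4 further lists were lower as well. These were other crosslinkers (422 and 424 against 466 to 507), other thin filament genes (535 and 480 against 541 to 582), other myosin II genes (429 and 448 against 485 to 537) and focal adhesion genes (232 and 219 against 236 to 264). The sum of the endothelial genes was higher in the same libraries, at 27.1 and 30.3 against 23.1 to 26.7. The part of these sums and of depth in the pattern was not tested.

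**Figure D3:**
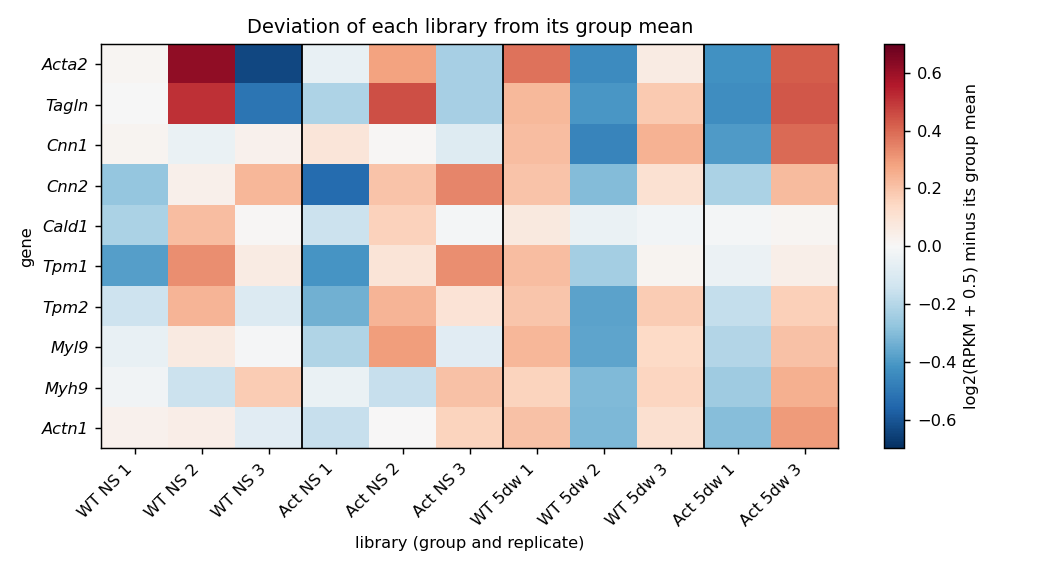
Deviation of each library from its group mean (colour, on the log2 scale of RPKM + 0.5) for the 10 genes (rows) in the 11 libraries (columns, with vertical lines between groups). Blue columns mark WT 5dw replicate 2 and Act 5dw replicate 1, which were low in 9 of the 10 genes, and the widest deviations in NS are those of Acta2 in WT replicates 2 and 3.

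Relative to the other genes of the same family 7 of the 10 genes took a larger share in 5dw. Shares are the RPKM of a gene over the summed RPKM of its family, a ratio within a library that scaling between libraries does not change. Of 9 shares compared between the 5 wound and 6 NS libraries of both genotypes, 7 did not overlap, each with p = 0.00433 in a two-sided exact permutation test, the smallest value the design allows. Among the other 18 genes of these families 8 shares (44.4%) did not overlap, and since the shares of a family sum to 100% those of its genes are not independent. Such a share shows unequal change within a family and not which gene changed.

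Acta2 made up 0.663 to 1.44% of the RPKM of 6 actins (with Actb, Actg1, Actg2, Acta1 and Actc1) in NS and 9.74 to 16.3% in 5dw. The cytoplasmic actins Actb and Actg1 stayed the most abundant, and Actg1 went from 58.8 to 63.6% in NS to 47.6 to 55.9% in 5dw. Tagln was 6.34 to 11.9% of the transgelins in NS and 20.0 to 28.7% in 5dw, the rest being almost all Tagln2. In percentage points Actn1 showed the greatest shift of the 9 (38.3), from 10.7 to 15.1% of the alpha-actinins in NS to 48.4 to 52.8% in 5dw. As a ratio of the mean shares in 5dw and NS, Acta2 (11.5) and Cnn1 (5.43) lay above Actn1 (3.95). The partner of Actn1, Actn4, had an RPKM of 42.2 to 61.2 in NS and 27.3 to 39.1 in 5dw, and its log2FC in WT mice was -0.49 (SE 0.17, limma adjusted p = 0.0270), a call that was lost after median-ratio scaling (-0.04, limma adjusted p = 0.851).

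Myh9 was 51.7 to 61.5% of the 4 non-sarcomeric myosin II heavy chains in NS and 72.4 to 81.6% in 5dw. Myh14, the heavy chain of myosin IIC, went from 4.25 to 17.0% of them to 0.122 to 0.380%, and Myh11, the smooth muscle heavy chain, was 1.13 to 3.10% in NS and 0.498 to 0.800% in 5dw. In NS the RPKM of Myh14 ran in the order of the summed keratinocyte genes within each genotype. It was 1.61, 2.65 and 3.86 beside sums of 1316, 2162 and 2397 in WT NS, and 1.14, 3.05 and 6.10 beside 1346, 3192 and 4978 in Act NS. With Myh14 left out of the family, a choice made after seeing the data, the share of Myh9 was 54.7 to 66.3% in NS and 72.6 to 81.9% in 5dw, again without overlap. Tpm1 was 10.7 to 12.3% of 4 tropomyosins in NS and 13.4 to 16.0% in 5dw, and Tpm2 was 3.65 to 5.17% and 7.11 to 9.78%. Tpm4 stayed the most abundant tropomyosin, averaging 151 ± 38.9 RPKM in WT NS and 243 ± 21.0 in WT 5dw (SD, n = 3 each). Cnn1 was 0.166 to 0.380% of the calponins in NS and 0.798 to 1.60% in 5dw. The shares of Cnn2 among calponins and of Myl9 among the regulatory light chains Myl9, Myl12a and Myl12b overlapped between conditions, with p = 0.264 and p = 0.0866 in the exact permutation test.

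**Figure D4:**
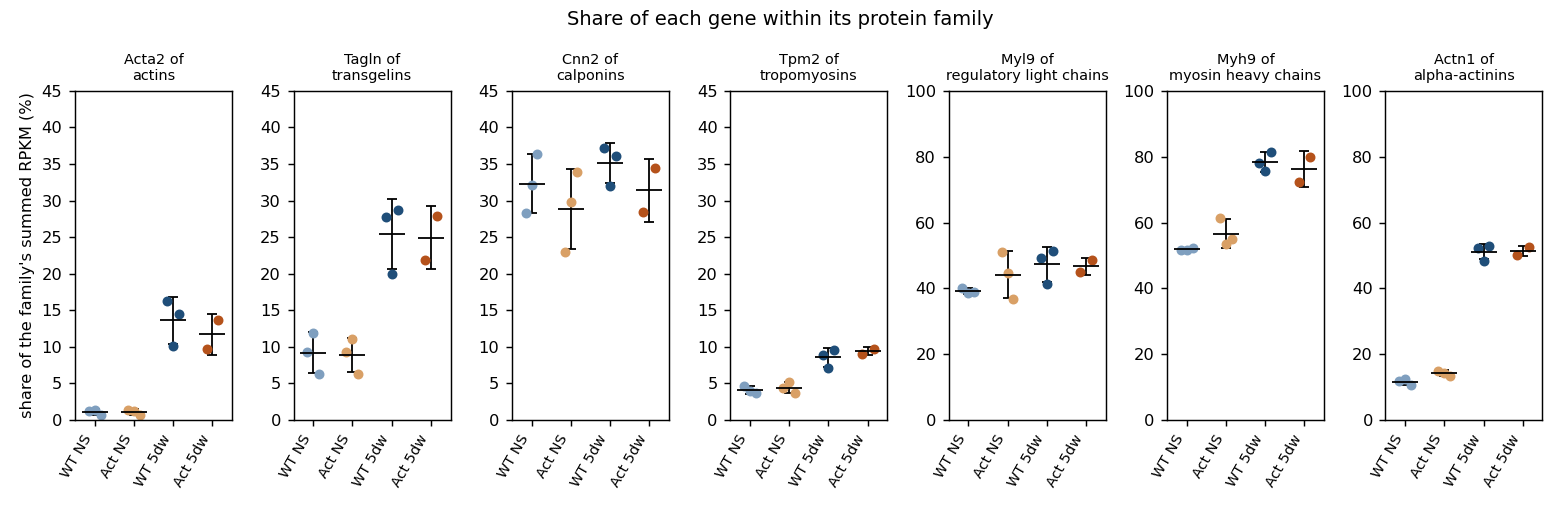
Share of a gene in the summed RPKM of its family (vertical axes, in percent, to 45 or 100) in the 4 groups (horizontal axes), with points for libraries, bars for means and error bars for SD (n = 3, and n = 2 for Act 5dw). Acta2, Tagln, Tpm2, Myh9 and Actn1 are separate between NS and 5dw, with Actn1 going from 10.7 to 15.1% to 48.4 to 52.8%, and Cnn2 and Myl9 overlap.

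Promoters are shown for 4 members with an exact match to an element of muscle gene control, so that the bases can be seen beside the values. RefSeq windows of 250 bases before to 50 after the start site were at hand for 9 of the 10 genes, with Cald1 having 2 windows, in the build GRCm38.p6. Exact matches were sought, on both strands, to the CArG box bound by SRF with no base of its consensus changed, to CATTCC (the MCAT element of TEAD factors) and to CAGAC (a Smad-binding core). A CArG box was found in the windows of Cnn2, starting at base -56 from the start site, and of Myl9, at base -161, and in 1.63% of all 32851 windows. CATTCC was found, on the reverse strand, in those of Acta2 (at -146), Tpm1 (at -56) and 1 window of Cald1 (at -153), and in 14.7% of all windows. CAGAC was in the windows of Acta2, Cnn1 and Myh9 and in both of Cald1, and in 49.6% of all windows. The windows of Tpm2 and Actn1 held none of these letters, and a match or its lack describes these bases only, since an element with a changed base, in Acta2 or elsewhere, was not counted. The 4 windows are given 5′ to 3′ in the direction of the gene, with the CArG box of Cnn2 and Myl9, or the reverse complement of the MCAT element in Acta2 and Tpm1, in capitals: the minus strand of chr19:34255324-34255623 (Acta2) and chr9:67049164-67049463 (Tpm1), and the plus strand of chr10:79988350-79988649 (Cnn2) and chr2:156775214-156775513 (Myl9).
Acta2: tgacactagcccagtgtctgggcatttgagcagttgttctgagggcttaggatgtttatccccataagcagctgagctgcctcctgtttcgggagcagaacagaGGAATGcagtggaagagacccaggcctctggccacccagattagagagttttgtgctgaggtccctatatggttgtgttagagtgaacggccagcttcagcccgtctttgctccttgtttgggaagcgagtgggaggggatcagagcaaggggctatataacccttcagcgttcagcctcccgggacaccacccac
Tpm1: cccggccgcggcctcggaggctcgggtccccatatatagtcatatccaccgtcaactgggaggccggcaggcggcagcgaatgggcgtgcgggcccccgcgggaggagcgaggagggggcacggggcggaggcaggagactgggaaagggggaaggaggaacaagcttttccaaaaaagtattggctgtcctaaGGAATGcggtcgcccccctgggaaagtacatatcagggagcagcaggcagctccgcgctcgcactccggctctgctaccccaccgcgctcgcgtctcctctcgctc
Cnn2: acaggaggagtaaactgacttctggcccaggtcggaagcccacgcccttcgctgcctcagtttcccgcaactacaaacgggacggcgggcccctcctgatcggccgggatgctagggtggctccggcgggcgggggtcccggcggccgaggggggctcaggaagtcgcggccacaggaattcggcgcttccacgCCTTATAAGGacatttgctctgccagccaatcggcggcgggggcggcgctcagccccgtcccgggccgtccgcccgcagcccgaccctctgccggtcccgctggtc
Myl9: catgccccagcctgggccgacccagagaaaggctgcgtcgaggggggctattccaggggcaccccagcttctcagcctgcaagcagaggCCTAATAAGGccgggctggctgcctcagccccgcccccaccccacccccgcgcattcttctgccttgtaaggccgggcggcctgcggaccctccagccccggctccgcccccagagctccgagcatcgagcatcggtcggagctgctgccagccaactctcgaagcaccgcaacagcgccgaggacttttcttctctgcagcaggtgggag

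The rest of the contractile machinery did not move as one. Lists of further genes were described by counts of calls and their median, beside the median of -0.40 and the 9.45% called higher and 48.8% called lower over all genes in WT mice (22.4% and 22.2% after median-ratio scaling). Of 3 other actins tested, 1 was higher in WT 5dw than in WT NS, Actg2 (gamma enteric smooth muscle actin), with a log2FC of 0.93 (limma adjusted p = 0.0406). Actb and Actg1 were not called, at -0.46 (limma adjusted p = 0.0636) and -0.43 (limma adjusted p = 0.144). Among 8 other thin filament genes 3 were higher and 3 lower in WT mice (median -0.23), and 2 higher and 3 lower in Act mice. Those higher in WT mice were Tagln2 (0.66), Cnn3 (0.44) and Tpm4 (0.71), paralogs of members. Those lower were the tropomodulins, which cap the pointed ends of filaments, with Tmod2 at -1.79 (limma adjusted p = 1.01e-05), Tmod1 at -1.51 and Tmod3 at -0.67, and after median-ratio scaling the call of Tmod3 was lost (-0.22).

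Of 6 other myosin II genes none was higher and 4 were lower in WT mice (median -0.68), and 3 were lower in Act mice. Median-ratio scaling left 1 higher, Myl6, and 2 lower in WT mice, and 1 higher and 1 lower in Act mice. Myh14 fell by 2.38 on the log2 scale (limma adjusted p = 0.000785) and Myl12b, a regulatory light chain of non-muscle myosin, fell by 1.23 (limma adjusted p = 0.000827), both called under either scaling. Myh10, the heavy chain of myosin IIB, had -0.61 as deposited (limma adjusted p = 0.00194) and -0.17 after scaling, which was not called.

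Crosslinkers and filament-associated proteins rose in part. Of 12 tested, 5 were higher and 1 lower in WT mice (median 0.31), 4 and 1 in Act mice, and 9 and 0 in WT mice after median-ratio scaling. Synpo (synaptopodin) had a log2FC of 1.32 (limma adjusted p = 7.85e-05), Csrp2, a LIM protein of actin bundles, 1.20 (limma adjusted p = 8.26e-05), and Fscn1 (fascin, which bundles actin in protrusions) 1.12 (limma adjusted p = 0.000130). Of 16 focal adhesion genes 1 was higher and 5 were lower in WT mice (median -0.18), but 7 were higher and 3 lower after scaling, so the direction of this list depends on the scaling. Tns1 (tensin 1) at -1.17, Pxn (paxillin) at -1.02 and Lims2 at -2.14 were lower under both, with limma adjusted p of 0.000183, 0.000333 and 0.000338 as deposited.

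Genes of transcriptional control were called at shares near those of all genes in deposited RPKM. Of 13 genes of SRF, TEAD and their cofactors and targets, 2 were higher and 6 lower in WT mice (median -0.34, beside -0.40 over all genes), and 3 higher and 0 lower after scaling. Fhl2, a LIM-domain cofactor, was at 1.56 (limma adjusted p = 0.000445) and called under both, while Tead3 (-0.78, limma adjusted p = 0.00197) and Scai (-0.66, limma adjusted p = 0.00276) were not called after scaling. In Act mice the counts higher and lower went with median-ratio scaling from 0 and 0 to 1 and 0 for other actins, from 2 and 3 to 3 and 2 for other thin filament genes and from 4 and 1 to 7 and 0 for crosslinkers. They went from 1 and 4 to 7 and 4 for focal adhesion genes and from 2 and 3 to 3 and 1 for the genes of SRF and TEAD. None of the 13 was called between the genotypes or in the interaction by limma.

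**Figure D5:**
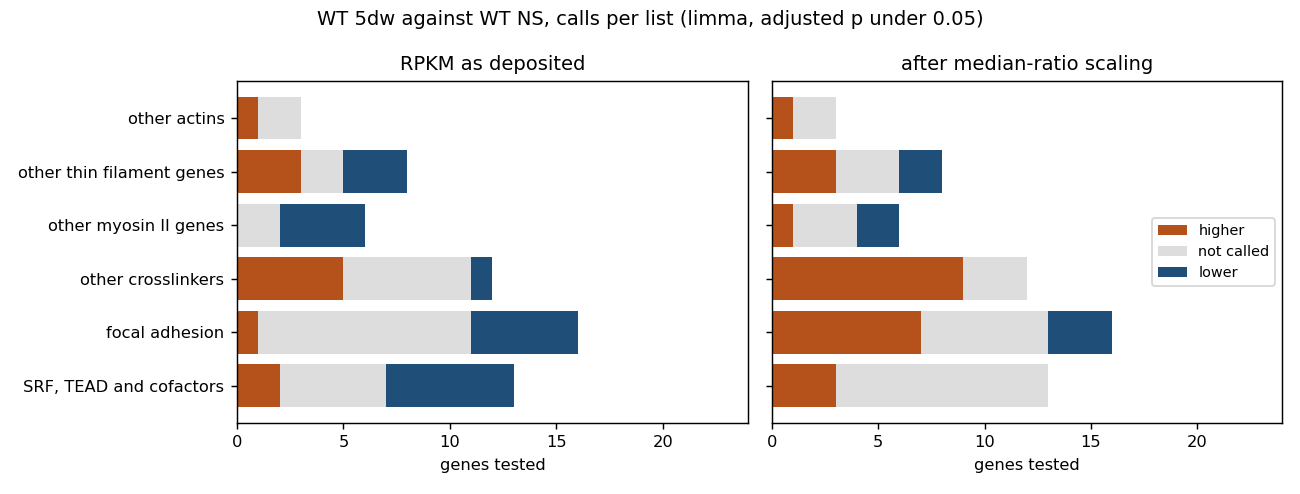
Number of genes tested (horizontal axes) in 6 lists of contractile and related genes (vertical axis), split by their call in WT 5dw against WT NS with limma at an adjusted p under 0.05. Deposited RPKM is on the left and median-ratio scaling on the right, where the lower calls of the SRF and TEAD list go from 6 to 0, and the higher calls of crosslinkers go from 5 to 9.

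Markers of other contractile cells were examined beside these values, since smooth muscle and pericytes also express Acta2, Tagln and Myl9. Over 12 smooth muscle genes the summed RPKM was 25.9 to 34.6 in NS and 17.9 to 27.8 in 5dw, most of it from Smtn. Pln was at 0 in all 11 libraries. Mean RPKM in WT NS and WT 5dw was 0.766 ± 0.169 and 0.226 ± 0.0680 for Myh11 and 0.725 ± 0.169 and 0.887 ± 0.0293 for Hspb6 (SD, n = 3 each). Of 5 genes tested 1 was higher and 2 lower in WT mice and none higher and 1 lower in Act mice. The gene higher in WT mice was Actg2, with means of 3.23 and 6.20 RPKM (log2FC 0.93, limma adjusted p = 0.0406). Over 10 pericyte genes the sum was 59.6 to 117 in NS and 74.8 to 123 in 5dw, most of it from Ndufa4l2, and of 9 tested 2 were higher and 4 lower in WT mice (median -0.48) and 3 higher and 2 lower in Act mice (median 0.26). Rgs4 was higher in WT mice (1.82, limma adjusted p = 0.000180) and in Act mice (2.32, limma adjusted p = 0.000121), and Cspg4 (NG2) was lower in both (-2.09, limma adjusted p = 1.94e-05, and -1.90, limma adjusted p = 0.000104). Abcc9 was higher in both as well (0.63, limma adjusted p = 0.0254, and 1.31, limma adjusted p = 0.00143). Rgs5 was higher in Act mice (1.12, limma adjusted p = 0.0146), whereas in WT mice it was called after median-ratio scaling (0.90, limma adjusted p = 0.0250) but not as deposited (0.59, limma adjusted p = 0.0955). After that scaling 3 pericyte genes were higher and 2 lower in WT mice, and 1 smooth muscle gene was higher and 1 lower. In Act mice the scaled counts were 3 and 1 for pericyte and 1 and 1 for smooth muscle genes. Over 14 skeletal muscle genes the sum was 3.83 to 7.97 in NS and 2.99 to 4.25 in 5dw, with 1 gene tested, Tnnt3. It was called lower as deposited in WT (-0.95) and Act mice (-0.81), and in neither after median-ratio scaling (-0.59 and -0.52). The part of these cells in the members' values was not tested.

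Marker genes of other cell types were compared between the conditions as well. Over all genes tested 9.45% were called higher and 48.8% lower in WT mice (22.4% and 22.2% after median-ratio scaling). The summed RPKM of 14 keratinocyte genes was 1316 to 4978 in NS and 177 to 1551 in 5dw, with 1 higher and 10 lower of 14 tested (median -2.71). Of 4 immune genes tested 2 were higher, and Cd3e, at 55.5 to 105 RPKM in 5dw and 2.94 to 33.9 in NS, made up most of the sum of these markers in 5dw, while Ptprc, which encodes the CD45 used for exclusion, was at most 0.0498. Of 5 endothelial genes 1 was higher and 2 lower. Of 10 fibroblast genes 3 were higher and 5 lower, among them Pdgfra, which encodes CD140a, at 56.1 ± 7.98 RPKM in WT NS and 35.8 ± 1.45 in WT 5dw (SD, n = 3). After median-ratio scaling the log2FC of Pdgfra in WT mice was -0.18 (limma adjusted p = 0.269) and was not called. Of 10 genes of the response to tissue dissociation 4 were lower and none higher. These counts are for WT mice, and in Act mice the counts higher and lower were 0 and 10 for keratinocyte, 1 and 1 for immune, 2 and 2 for endothelial, 3 and 4 for fibroblast and 0 and 2 for dissociation genes. After median-ratio scaling in WT mice the counts higher and lower were 1 and 8 for keratinocyte, 2 and 0 for immune, 2 and 2 for endothelial, 3 and 2 for fibroblast and 1 and 0 for dissociation genes, and in Act mice 0 and 8, 2 and 0, 2 and 0, 3 and 3, and 2 and 0 in that order, so that the direction of the last list turns with the scaling in both genotypes. The part of these shifts in the members' values was not tested, and the RNA input also differed between NS and 5dw libraries, so that input and wounding cannot be told apart.

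The genes whose log2 RPKM most resembled that of Acta2 over the 11 libraries, among those in none of the lists, were Elk3 (Pearson r = 0.99), Fblim1 (0.99), Glis3 (0.99), Prss35 (0.98) and Gpx7 (0.98). Those most like Myh9 were Pfkl (0.97), Dusp9 (0.97), Mif (0.97), Pkm (0.97) and Gm4735 (0.96). Over libraries that fall into an NS and a wound cluster such values contain the difference between conditions, and they are given as a description. On wounding in WT mice Prss35 had a log2FC of 4.04, Fblim1 of 2.54 and Glis3 of 2.43.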

How the data were processed

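Fibroblasts were enriched by FACS, and stranded poly-A libraries were sequenced as single reads of 100 bases. The authors mapped reads to GRCm38 with CLC Genomics Workbench and deposited RPKM values per gene symbol. Per the labels they ran edgeR for their own comparisons, which were not used. The strand setting and annotation of the counting are not given in the sources used here. Mapped totals (18649321 to 39702138) and members' reads were worked out from the steps between RPKM values. Genes with 1 RPKM or more in at least 2 libraries (11979) were fitted on log2(RPKM + 0.5) by group means over all 11 libraries with limma 3.58.1 (trended) in R 4.3.3, and p-values were Benjamini-Hochberg adjusted per comparison. The fit was tested on simulated data. Same-numbered libraries deviated together between WT NS and Act NS (r 0.33 to 0.55), WT NS and WT 5dw (0.11 to 0.19) and Act NS and WT 5dw (0.20 to 0.26). Replicates 1 and 3 of Act 5dw gave 0.019 and 0.14 with Act NS, -0.078 and 0.19 with WT 5dw and -0.12 and 0.16 with WT NS. A replicate block was tried. Shares and motifs were computed in Python 3.11.15. Gene models are GENCODE M21 and promoters RefSeq. Pools of animals are the replicates, so p-values measure the spread between pools. The members, lists and named-gene rules (all members, up to 3 called genes per list, 5 genes most like Acta2 and Myh9) were chosen with earlier results of these data known. Paralogs, family partners and markers that a share or a cell type turned on were named after their values were seen. 1 of the gene lists is not reported here.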

Additional observations from a re-analysis of the deposited data

How the results depend on the processing

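Across 21 alternatives (pseudocount, filter, scaling, spread model, replicate block, groups fitted, libraries left out) the number of members called higher was 8 or 9 in WT mice and 6 to 9 in Act mice, where 6 came from fitting the compared groups alone, with Cnn1 below the filter and Cnn2 and Myh9 not called. No member was called in a genotype comparison or the interaction under any of those that gave a value, which were 20 for the interaction and 19 or 20 for Cnn1. Leaving out both NS libraries numbered 1 and leaving Myh14 out of the myosin family were chosen after seeing the data, and the latter moved the rise in the mean share of Myh9 from 23.3 to 17.5 percentage points. Without a filter Cnn2 was not called (limma adjusted p = 0.0819 in WT and 0.0693 in Act mice), nor was it in Act mice without both NS replicates 1 (0.0540) or with the compared groups alone (0.0720). The replicate block left 9 members called in each genotype and changed no call. Signs turned only for values that were never called, and the cause was not tested. With median-ratio scaling and quantile normalization, in that order, the log2FC of Myl9 on wounding became 0.40 and 0.11 in WT mice and 0.26 and 0.049 in Act mice. Between Act NS and WT NS it became 0.071 and 0.061 for Acta2, 0.11 and 0.080 for Cald1, 0.059 and 0.048 for Tpm2, and 0.075 and 0.037 for Myl9, and without both NS replicates 1 Tpm2 was at 0.023 and Myl9 at 0.013. Between Act 5dw and WT 5dw Myh9 became 0.0080 and 0.022. With median-ratio scaling the interaction was -0.042 for Cald1 and -0.0082 for Tpm1. Over the fits that each left out 1 library, sign changes were seen on wounding for Myl9, at -0.17 to 0.13 in WT and -0.29 to 0.11 in Act mice. Between Act NS and WT NS such ranges were -0.38 to 0.24 for Acta2, -0.21 to 0.31 for Tagln, -0.14 to 0.084 for Cald1, -0.19 to 0.095 for Tpm2 and -0.21 to 0.040 for Myl9. Between Act 5dw and WT 5dw they were -0.71 to 0.14 for Acta2, -0.65 to 0.22 for Tagln, -0.58 to 0.21 for Cnn1, -0.38 to 0.063 for Cnn2, -0.11 to 0.24 for Tpm2, -0.30 to 0.11 for Myl9, -0.28 to 0.21 for Myh9 and -0.41 to 0.19 for Actn1. For the interaction they were -0.64 to 0.20 for Acta2, -0.70 to 0.17 for Tagln, -0.65 to 0.14 for Cnn1, -0.11 to 0.38 for Cnn2, -0.053 to 0.17 for Cald1, -0.12 to 0.28 for Tpm1, -0.040 to 0.32 for Tpm2, -0.24 to 0.17 for Myl9 and -0.39 to 0.10 for Myh9. Where an Act 5dw library was left out, the remaining one was assumed to vary like the other groups. Depth limits Cnn1, with 6 to 13 reads in an NS library.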
